A study of Mus musculus with 11 samples.

Results

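The HIVEP genes encode a family of very large zinc finger transcription factors, also known as the Schnurri proteins. The family was taken as the 3 genes whose identifiers in the deposited count files map to Hivep1, Hivep2 and Hivep3, of 48709 genes in all, and all 3 were among the 17365 genes that passed the filter on low counts. They were chosen with their difference between mimic and control known, so that difference, its interval and whether the fit over all genes called it are given here as a description, with no p-value, and are no independent evidence for it.

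Primary hippocampal neurons were prepared from CD1 mouse embryos at E17 and received lipid nanoparticles on day 10 in vitro. In the mimic group (n = 5) the particles carried a miR-181a-5p mimic, and in the control group (n = 6) they carried a negative control oligonucleotide. Both groups therefore received particles, which were given with ApoE4, and there were no untreated cultures. Poly(A) RNA was taken 48 h later, on day 12 in vitro, and sequenced. Such cultures hold neurons and glia, hippocampi of several embryos were pooled to make them, and the labels do not say whether samples of a group were separate cultures, so the spread and p-values may reflect technical variation alone. The question the comparison addresses is which transcripts differ when miR-181a-5p is raised in hippocampal cultures.

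HIVEP proteins carry widely separated pairs of zinc fingers that bind the kB-like DNA motif also read by NF-kB. In Drosophila the ancestral Schnurri protein works with Smad proteins downstream of the BMP-type ligand Dpp, and mammalian members can also act with Smads. Hivep1 was identified through its binding to kB-like enhancers of viral and immune genes. Hivep2 is strongly expressed in brain, and loss of 1 copy of the human gene causes intellectual disability. Hivep3, also called KRC or Schnurri-3, binds TRAF2 and c-Jun and, with the ubiquitin ligase WWP1, promotes degradation of the bone regulator RUNX2. A microRNA guides Argonaute to transcripts that pair with its seed, nucleotides 2 to 8, most often in the 3′ UTR, which lowers the level of the transcript or its translation.

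The sequences of both oligonucleotides, in which capitals mark the seed, define the words that were searched for in the HIVEP transcripts.
miR-181a-5p mimic: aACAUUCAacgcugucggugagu
negative control oligonucleotide: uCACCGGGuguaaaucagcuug
The mimic has the letters of mouse miR-181a-5p in RefSeq, and its seed is shared by miR-181b-5p, miR-181c-5p and miR-181d-5p. The complement of nucleotides 2 to 8 reads TGAATGT on the sense strand. An 8-letter match, TGAATGTA, adds an A opposite nucleotide 1. A 7-letter match is TGAATGT or GAATGTA, the latter with this A, and a 6-letter match is GAATGT.

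Matches to the miR-181a-5p seed differed among the 3 genes and were sparse in their 3′ UTRs. In the coding transcript of each gene with the longest annotated 3′ UTR (GENCODE M21, GRCm38), Hivep1 had 0 matches of 6 letters in its 3′ UTR of 513 bases, Hivep2 had 0 in 1638 bases and Hivep3-202 had 1 in 3694 bases. Among 14512 tested genes with a 3′ UTR, 38.6% held at least 1 such match there and 24.8% held one of 7 letters or more. An 8-letter match lay in the coding sequence of Hivep1 and of Hivep3, which 2.28% of these genes had, and the coding sequence of Hivep2 had no match of even 6 letters. This share takes no account of coding length, which was 8067 bases in Hivep1 and 7047 in Hivep3. The share among genes of like coding length was not counted. No match says only that these letters are not in the annotated sequence.

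The windows below hold the longest coding matches, the single 3′ UTR match of Hivep3-202 and the longest 3′ UTR match of any annotated HIVEP transcript. Each is 30 bases of the plus strand of GRCm38, and capitals mark the matched letters.
Hivep1 coding, chr13:42154794-42154823: gtaaagccaggactgacaatagTGAATGTA
Hivep3 coding, chr4:120096374-120096403: tcaaaacaaaaggcgcgaactaTGAATGTA
Hivep3 3′ UTR, chr4:120136728-120136757: cctggaaaaaactctcactccagGAATGTg
Hivep3-201 3′ UTR, chr4:119735954-119735983: aagatgcagtatgaatgaatggTGAATGTg
The Hivep1 coding match fell at codon 178 and the Hivep3 coding match at codon 637. The last window belongs to Hivep3-201, a short isoform near the start of the gene that ends far upstream of the main coding region. With every annotated 3′ UTR counted, Hivep3 had 3 matches, 1 of them of 7 letters, and Hivep1 and Hivep2 still had 0. The seed of the control oligonucleotide had 2 matches of at least 7 letters in the coding sequence of Hivep1 and 1 in the 3′ UTR of Hivep2, where 5.11% of genes had one. No HIVEP gene was in the study's list of predicted miR-181a-5p targets.

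**Figure D1:**
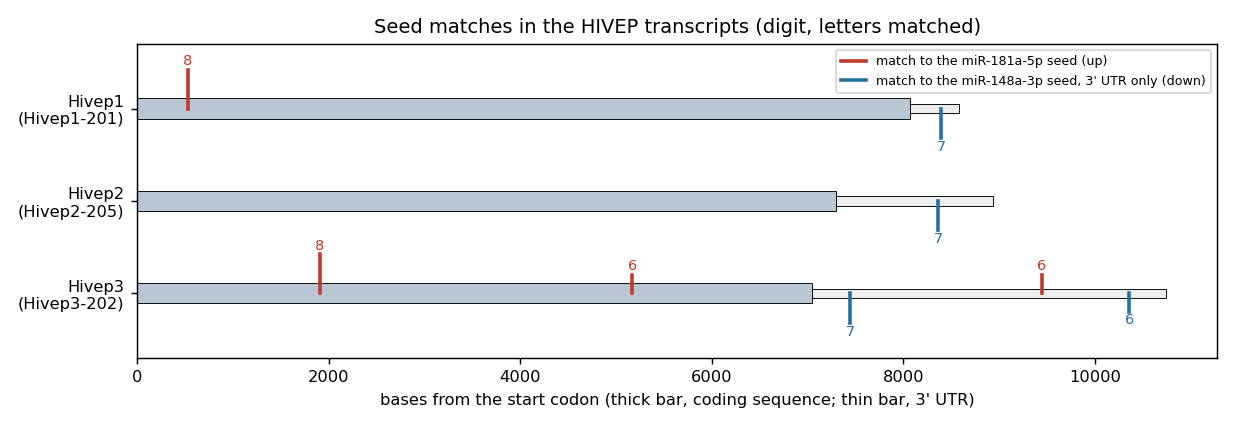
Coding sequence (thick bar) and 3′ UTR (thin bar) of the transcript used for each HIVEP gene, drawn to scale in bases from the start codon; red marks are matches to the miR-181a-5p seed and blue marks are 3′ UTR matches to the miR-148a-3p seed, each with the number of letters matched. The 8-letter matches lie in the coding sequences of Hivep1 and Hivep3, and Hivep2 carries no red mark.

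The libraries held 17287168 to 48091231 counts in control and 18353639 to 26060379 in mimic samples, so each HIVEP gene rested on at least 987 counts in every library. Neuronal markers were abundant in all libraries, at a summed 8698 to 9371 CPM (counts scaled to library size by TMM), and astrocyte markers were also present, at 4105 to 4847 CPM. Over all genes, 307 were called lower and 188 higher in mimic at an adjusted p under 0.05 (edgeR), 62.0% lower, and with upper-quartile scaling the calls were 226 lower and 234 higher, 49.1% lower. Under the settings tried, the log2 fold change of the median gene ran from -0.0147 to 0.0103.

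Hivep2 was by far the most abundant HIVEP gene in control cultures. Per kilobase of merged exons, its level was 39.0 ± 0.943 RPKM (SD, n = 6), that of Hivep1 was 7.89 ± 0.367 and that of Hivep3 was 3.41 ± 0.152. In the same library Hivep2 was 4.95-fold (range 4.70 to 5.07) above Hivep1 and 11.4-fold (10.9 to 12.4) above Hivep3, and Hivep1 was 2.31-fold (2.17 to 2.45) above Hivep3. Each order held in 6 of 6 control samples, and each of the 3 pairs gave an exact two-sided sign-flip permutation p of 0.03125, the smallest that 6 samples allow (adjusted p = 0.03125). With 5 controls this test cannot go below 0.0625. Scaled instead to the longest coding transcript, the ratios were 6.49, 10.7 and 1.65 in the order given, so the gap between Hivep1 and Hivep3 depended most on the length used. On the CPM scale, with no correction for length, the mean level of Hivep2 exceeded that of 98.5% of tested genes.

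All 3 HIVEP genes were lower in mimic than in control samples, by 8.11% to 13.7%, and all 3 were called lower, in a comparison where 1.77% of tested genes were called lower and 2.85% in either direction. Since the genes were chosen from this comparison, nothing is read from that count. Summed over the family, expression was 640.7, 672.8 and 683.6 CPM (lowest, median and highest) in control and 595.2, 614.9 and 620.5 CPM in mimic samples, and these ranges did not overlap.

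Hivep3 showed the largest relative difference of the 3. Its level in control samples was 55.86, 60.62 and 62.85 CPM (lowest, median and highest), and in the mimic samples it was 51.4, 50.05, 53.38, 53.93 and 51.17 CPM. Every mimic sample lay below every control sample, with a gap of 1.93 CPM between control replicate 6 and mimic replicate 4. Complete separation in this direction was seen for 1.73% of tested genes, and in the opposite direction for 1.16%. The means were 60.1 ± 2.67 CPM (SD, n = 6) and 51.99 ± 1.62 CPM (SD, n = 5). The log2 fold change was -0.21 (SE 0.035, 95% interval -0.28 to -0.14), or 13.7% lower (9.32% to 17.8%). Of the tested genes, 6.19% had a more negative fold change. Hivep3 (ENSMUSG00000028634) spans chr4:119733784-120138045 on the plus strand in GRCm38, and an annotated gene on the same strand, AL607142.1, shares 78 exonic bases with it and has no value in the count files used here.

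Hivep2, the gene linked to intellectual disability, differed by less in relative terms but with a tighter relative spread. In control samples its level was 513.6, 538.5 and 547.6 CPM (lowest, median and highest), and in the mimic samples it was 500.0, 486.4, 494.6, 498.1 and 479.1 CPM. The groups did not overlap, and 13.6 CPM separated control replicate 2 from mimic replicate 1. The means were 535.1 ± 12.9 CPM (SD, n = 6) and 491.7 ± 8.73 CPM (SD, n = 5). The log2 fold change was -0.12 (SE 0.023, 95% interval -0.17 to -0.07), or 8.11% lower (5.01% to 11.1%). Of the tested genes, 12.0% had a more negative fold change. Hivep2 (ENSMUSG00000015501) spans chr10:13966075-14151374 on the plus strand. Its exons overlap those of the antisense genes Gm26835, over 692 bases, and Gm28289, over 254 bases. These had 0 to 9 counts and 0 counts per library, against at least 9145 for Hivep2, and the sources used here do not state whether strand was used in counting.

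Hivep1, whose product was described at kB-like enhancers, was the HIVEP gene whose groups overlapped. Its level was 68.67, 72.95 and 77.82 CPM (lowest, median and highest) in control samples, and in the mimic samples it was 69.04, 66.57, 66.85, 68.15 and 64.86 CPM. Mimic replicate 1 lay above control replicate 2. The means were 73.3 ± 3.41 CPM (SD, n = 6) and 67.1 ± 1.60 CPM (SD, n = 5). The log2 fold change was -0.13 (SE 0.033, 95% interval -0.19 to -0.06), or 8.42% lower (4.04% to 12.6%). Of the tested genes, 11.5% had a more negative fold change. Its call was lost when control replicate 1, 3 or 5 or mimic replicate 2, 3, 4 or 5 was left out, with a fold change of -0.13 to -0.11 in those fits. It was also lost with the replicate number as a block (-0.1241). The calls of Hivep2 and Hivep3 were lost in 0 of the fits that left out 1 sample, and since the genes were chosen from this comparison, nothing is read from which calls were lost. Hivep1 (ENSMUSG00000021366) spans chr13:42052021-42192537 on the plus strand.

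**Figure D2:**
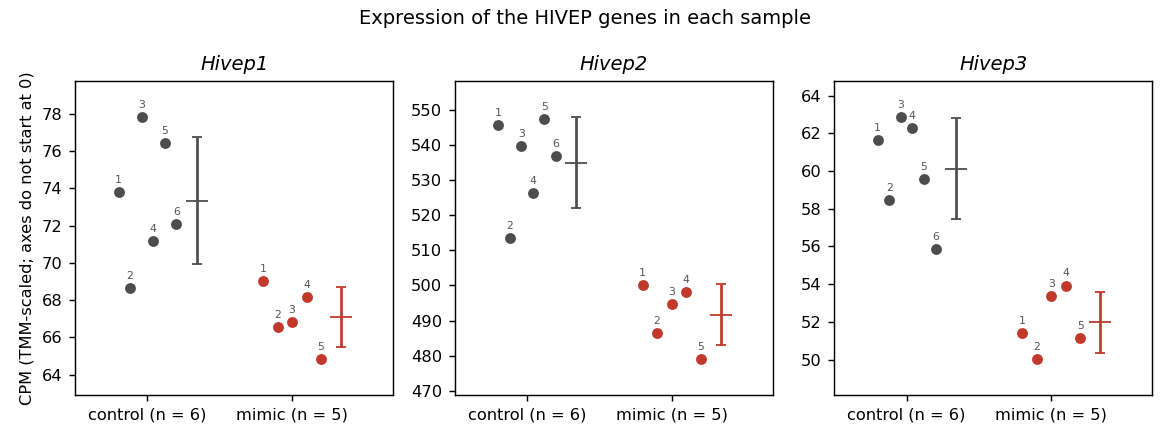
TMM-scaled CPM of each HIVEP gene in the 6 control and 5 mimic samples, 1 numbered point per sample, with the mean and SD beside each group; the axes do not start at 0. The groups are separate for Hivep2 and Hivep3, and for Hivep1 mimic replicate 1 lies above control replicate 2.

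**Figure D3:**
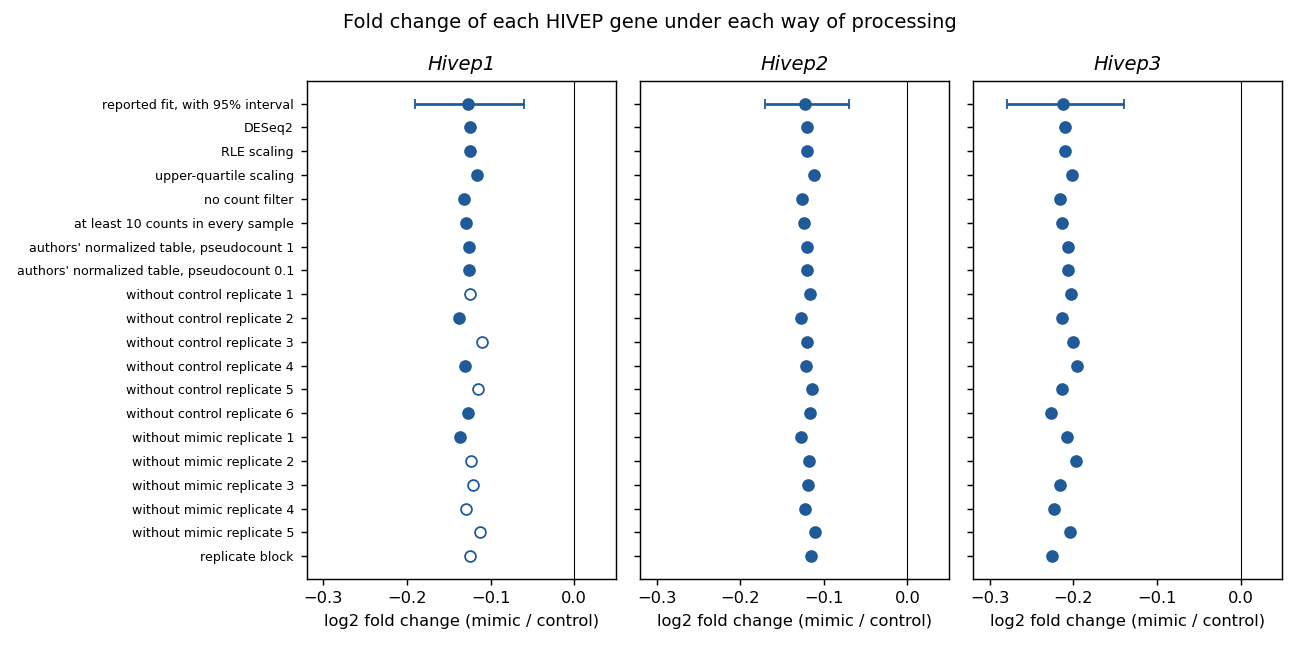
Log2 fold change of each HIVEP gene under each way of processing and with each sample left out; filled points passed the threshold of an adjusted p under 0.05, open points did not, and the bar on the reported fit is its 95% interval. All points lie below 0, and the open points, 8 in number, are all in Hivep1.

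Cell type markers moved between the groups alongside the HIVEP genes. Over all tested genes, 1.77% were called lower and 1.08% higher. The 10 neuronal markers summed to 9099 to 9371 CPM in the controls and 8698 to 8994 CPM with the mimic. The mean of this sum changed by -4.14%. Of the 10, 2 were called lower, Slc17a7, a vesicular glutamate transporter, and Camk2a, a synaptic kinase. With control replicate 1 or mimic replicate 2 or 4 left out, 0 neuronal markers were called. The 7 astrocyte markers summed to 4463 to 4847 CPM in the controls and 4105 to 4352 CPM with the mimic. The mean of this sum changed by -7.96%. Of the 7, 1 was called lower, the glutamate transporter Slc1a2, with means of 2400 and 2110 CPM. The log2 fold changes of Slc1a2, S100b, Gfap and Aqp4 were -0.18, -0.16, -0.14 and -0.11. Those of Aldh1l1, Slc1a3 and Gja1 were 0.0, 0.0 and 0.05, so the fall was not shared by all 7. Summed, fibroblast and vascular markers moved the other way, from 245.9 to 375.1 CPM in the controls to 384.6 to 517.0 CPM with the mimic. The fibroblast genes Col1a1, Col1a2, Col3a1, Dcn and Lum had log2 fold changes of 0.47, 0.56, 0.39, 0.53 and 0.46. The vascular genes did not move together, at 0.77 for Cdh5, 0.05 for Pecam1, -0.29 for Acta2 and -0.66 for Rgs5. Of 9 tested, 1 was called higher (Cdh5) and 1 lower (Rgs5) by edgeR. In this list 7 of 9 had an unadjusted p under 0.05, and 5 were called by DESeq2. Oligodendrocyte lineage markers (314.5 to 379.3 against 287.4 to 330.7 CPM) and microglial markers (14.27 to 14.77 against 13.41 to 14.62 CPM) overlapped between groups, with 0 of 7 called in each list by edgeR, 2 of 7 in each at an unadjusted p under 0.05, and 1 and 0 called by DESeq2. No marker was at 0 in every library. Their part in the HIVEP differences was not tested, and in bulk RNA fewer cells of a type cannot be told apart from less RNA per cell.

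Ratios between HIVEP genes within a library do not depend on how libraries are scaled. The ratio of raw counts of Hivep2 to Hivep1 was 7.30 ± 0.211 (SD, n = 6) in control and 7.33 ± 0.0646 (SD, n = 5) in mimic samples. The ratio of Hivep3 to Hivep1 was 0.821 ± 0.0401 in control and 0.775 ± 0.0249 in mimic samples, and that of Hivep3 to Hivep2 was 0.112 ± 0.00522 and 0.106 ± 0.00269. On the log2 scale these mean ratios differed between groups by 0.0055, -0.0814 and -0.0869. For all 3 ratios the groups overlapped, so the larger fold change of Hivep3 was not separated from those of the other HIVEP genes. As a share of the family's CPM, Hivep3 was 8.99% ± 0.375 (SD, n = 6) in control and 8.51% ± 0.204 (SD, n = 5) in mimic samples, while Hivep2 was 80.0% ± 0.473 and 80.5% ± 0.133.

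**Figure D4:**
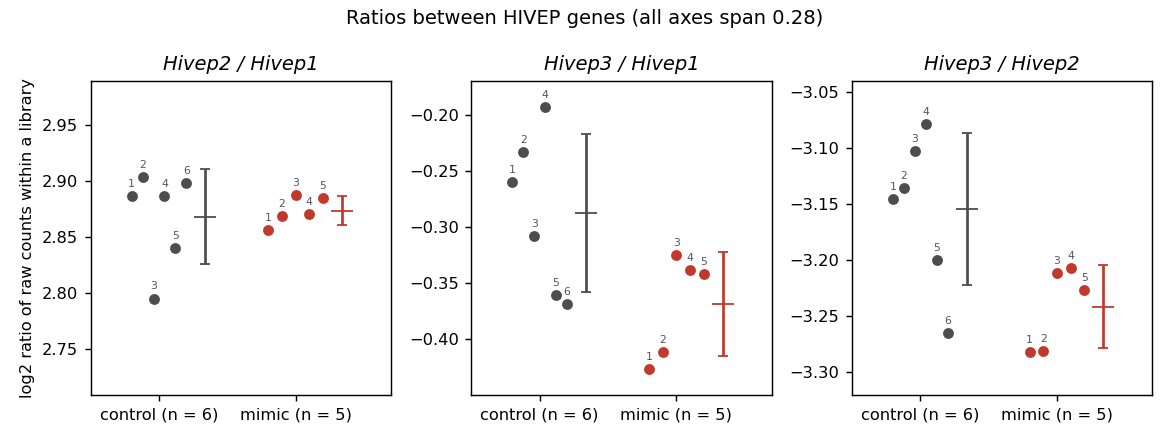
Log2 ratio of raw counts between each pair of HIVEP genes in each library, 1 numbered point per sample, with the mean and SD beside each group; every axis spans 0.28. The mimic points lie within the control range for Hivep2 over Hivep1 and lower on average, with overlap, for the ratios of Hivep3.

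Among samples of a group, Hivep2 varied less than the median expressed gene in both groups, and Hivep1 and Hivep3 varied more in control and less in mimic samples. The coefficient of variation among control samples was 4.65% for Hivep1, 2.42% for Hivep2 and 4.45% for Hivep3, beside a median of 3.96% over 9673 genes with at least 10 CPM. Among mimic samples the values were 2.38%, 1.78% and 3.11%, beside a median of 4.30%.

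Genes grouped by seed match place the HIVEP genes among transcripts of like sequence. Genes with a 3′ UTR match of 7 letters or more numbered 3598, had a median log2 fold change of -0.022, and 4.28% of them were called lower. The 8914 genes with no 6-letter match there, the class of Hivep1 and Hivep2, had a median of 0.009 and 1.07% called lower. Hivep3 belonged to the 2000 genes with only a 6-letter match, with a median of -0.001 and 2.25% called lower. Hivep1 was also among 164 genes with an 8-letter coding match and none in the 3′ UTR, whose median was -0.037 and of which 3 (1.83%) were called lower. All 3 genes have coding sequences of over 6000 bases (8067 in Hivep1, 7293 in Hivep2 and 7047 in Hivep3). In a class chosen after the values were seen, the 293 genes with coding sequences of at least 6000 bases had a median log2 fold change of -0.047 and 10.9% called lower. The 184 of them with no 6-letter match in the 3′ UTR, which include Hivep1 and Hivep2, had a median of -0.041 and 7.07% called lower. These long genes were also more abundant, with a median of 64.2 CPM against 22.4 CPM over all 14512 genes. The part of length and level in these counts was not tested.

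Of 15 direct partners and described targets of HIVEP proteins, 13 were tested, and 1 was called lower and 0 higher, where 1.77% of all tested genes were called lower. Their median log2 fold change was -0.018, beside -0.0001 over all genes. Rps6ka3, which encodes the kinase RSK2 that acts with Schnurri-3 in bone, fell. Its mean was 98.5 ± 2.78 in the controls and 90.5 ± 3.28 CPM with the mimic (SD, n = 6 and 5, as for the genes that follow), and its log2 fold change was -0.12 (SE 0.030, adjusted p by edgeR = 0.0227). This call was lost without control replicate 1, 2, 4 or 6 or mimic replicate 2, 3 or 4, with fold changes of -0.13 to -0.10. It was also lost with the replicate number as a block (-0.106). The AP-1 subunits Jun and Fos, the first a binding partner of Hivep3, had log2 fold changes of 0.01 and -0.08 (edgeR adjusted p = 0.93 and 0.598). The adaptors Traf2 and Traf1 had 0.07 and 0.35 (adjusted p = 0.689 and 0.236). Runx2 and its ligase Wwp1 had -0.03 and 0.03 (adjusted p = 0.964 and 0.858), and the BMP mediators Smad1, Smad4 and Smad5 had 0.09, -0.03 and -0.02 (adjusted p = 0.30, 0.813 and 0.879). The somatostatin receptor Sstr2, the proto-oncogene Myc and the cartilage collagen Col2a1 had -0.03, 0.08 and -0.23 (adjusted p = 0.823, 0.492 and 0.408). The signs of Jun, Runx2, Smad5, Sstr2 and Wwp1 flipped when single samples were left out. Cryaa, a lens crystallin, and Il2, a T cell cytokine, were too low to be tested.

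The NF-kB pathway, whose DNA motif the HIVEP proteins share, showed no called gene. Of 37 subunits, inhibitors, kinases and receptors, 36 were tested and 0 were called by edgeR or DESeq2, while 4 had an unadjusted p under 0.05. Over all tested genes, edgeR called 2.85% in either direction. A list this short can hold 0 calls at that share, so nothing about the pathway is read from the count. Their median log2 fold change was -0.007, with 18 negative and 18 positive. The 2 most abundant members were Traf3, an adaptor that restrains the non-canonical pathway, at 268 and 258 CPM (log2 fold change -0.05, edgeR adjusted p = 0.334), and Tab2, an adaptor of the kinase TAK1, at 105 and 108 CPM (log2 fold change 0.03, adjusted p = 0.619).

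Among genes with described kB enhancers, 20 of 25 were tested, 1 was called higher and 0 lower, in a comparison where 1.08% of all tested genes were called higher. The list had a median of 0.061 on the log2 scale, with 7 negative and 13 positive. In it 6 genes had an unadjusted p under 0.05. H2-D1, a class I histocompatibility gene, rose. Its mean was 35.2 ± 1.08 in the controls and 39.7 ± 1.30 CPM with the mimic, and its log2 fold change was 0.17 (SE 0.036, adjusted p by edgeR = 0.00888). Class I genes are near-identical copies in part, so its counts are uncertain where short reads could be split among them. The cytokine genes Tnf, Il6 and Il1b were below the count filter.

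In BMP and Smad signalling, 32 of 33 genes were tested, 2 were called higher and 0 lower, where 1.08% of all tested genes were called higher. The median log2 fold change was -0.013, with 20 negative and 12 positive, and 8 genes had an unadjusted p under 0.05. Both called genes encode secreted ligands. Bmp5 rose, with means of 0.767 ± 0.183 in the controls and 1.31 ± 0.308 CPM with the mimic and a log2 fold change of 0.81 (SE 0.195, adjusted p by edgeR = 0.0203), a call lost without control replicate 1 or mimic replicate 4 or 5 (log2 fold change 0.70 to 0.80). Bmp7 rose, with means of 18.3 ± 1.58 and 20.8 ± 0.825 CPM and a log2 fold change of 0.19 (SE 0.053, adjusted p = 0.0464), a call lost without control replicate 1, 2, 3 or 6 or mimic replicate 1, 2 or 4 (0.17 to 0.19) with the authors' normalized table and with the replicate number as a block. The sum of the fibroblast and vascular markers was higher by 34.3% in the same samples, and the part of these markers in the rises was not tested.

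**Figure D5:**
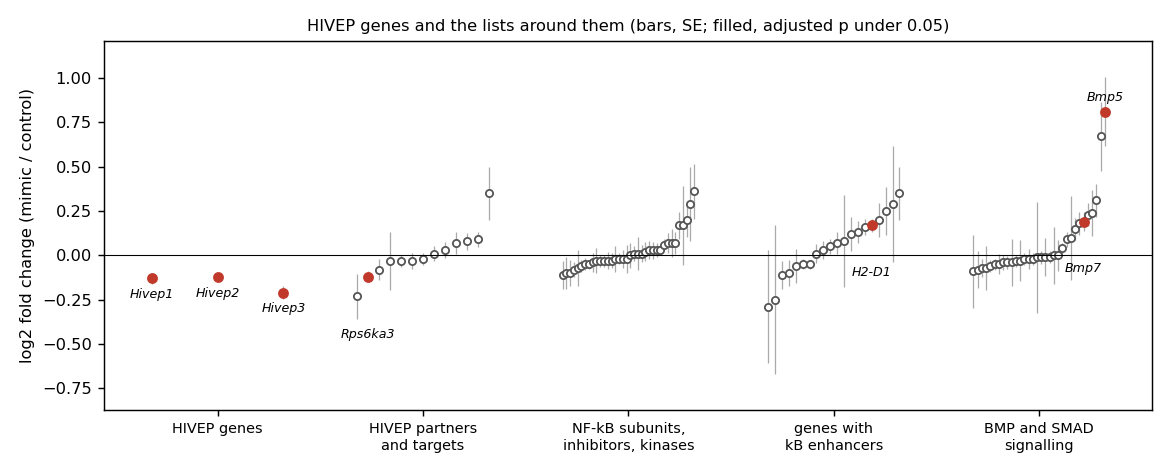
Log2 fold change, mimic over control, of the 3 HIVEP genes and of the tested genes of 4 related lists, each point 1 gene with its SE; filled points passed an adjusted p under 0.05 over all genes. The HIVEP genes and Rps6ka3 lie below 0, H2-D1, Bmp5 and Bmp7 lie above it, and no gene of the NF-kB list is filled.

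Variation among samples of the same group was shared most by Hivep1 and Hivep2. Over the 11 samples, the deviations of log2 CPM from the group means of Hivep1 and Hivep2 had a Pearson r of 0.854 (Spearman rho 0.873), and 1.15% of 13927 genes were more like Hivep1 than Hivep2 was. Hivep3 followed them less closely, with r of 0.407 (rho 0.536) to Hivep1 and 0.295 (rho 0.373) to Hivep2, and 23.9% and 29.6% of genes came closer. The genes most like Hivep1 were Slc25a25, Nphp4 and Setd1b (r 0.960, 0.956 and 0.954). Those most like Hivep2 were Rab11fip3, Dock9 and Trio (0.984, 0.979 and 0.941), and those most like Hivep3 were Nf2, Plxna3 and Frg2f1 (0.926, 0.914 and 0.912). Ranked by Spearman rho instead, 1 of 3 genes stayed among the first 3 for Hivep1, 2 of 3 for Hivep2 and 0 of 3 for Hivep3. None of these 9 genes was called between mimic and control (edgeR adjusted p from 0.265 to 0.86). These values come from the same libraries and the same scaling, were the highest of many, and are a description of likeness only.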

How the data were processed

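The authors aligned 50-base single-end reads to mm10 with STAR 2.5.2b and counted genes with featureCounts (Subread 1.5.1), per the labels and the study's methods, and deposited raw counts per sample. The normalized table, deposited by the authors as a signal of counts divided by 1 size factor per sample, served as an alternative, since its values are not counts. A gene was tested if 50% or more of the samples had 5 or more counts. Testing was done between mimic and control with edgeR 4.0.16 (R 4.3.3, TMM scaling, robust quasi-likelihood test, two-sided, Benjamini-Hochberg adjustment over all genes tested). DESeq2 1.42.0 and limma 3.58.1, the latter on the normalized table, were alternatives. The fit was tested on simulated data. RPKM used merged exons of GENCODE M21 (GRCm38), and seed matches used its transcripts. Replicates of a group differed by more than sampling noise (chi-square per degree of freedom at least 1.25). Depth per library is given with the results.

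The genes, lists and tests were chosen with earlier results of these data known. Named genes are all HIVEP genes, tested partners, called genes of each list (or the 2 most abundant where none was called) and the 3 genes most like each HIVEP gene. Genes whose exons overlap those of the HIVEP genes, called markers and the tested astrocyte, fibroblast and vascular markers are also named. Genes below the filter, uncalled markers and the class of long coding sequences were named after values were seen.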

Additional observations from a re-analysis of the deposited data

Results flagged for a closer look

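The summed CPM of the microglial markers in mimic replicate 5 was 13.41, apart from the 14.28 to 14.62 of the other mimic samples, and its gap to the nearest sample was 0.7202 of the group's range. This was 1 of 24 sets of samples examined, and chance flags about 1 in 20.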

How the results depend on the processing

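Hivep1, Hivep2 and Hivep3 were lower in mimic under all 19 alternatives, with log2 fold changes of -0.14 to -0.11, -0.13 to -0.11 and -0.23 to -0.20. Leaving out 1 sample at a time gave 2 to 3 HIVEP genes called, against 3. Counts of calls over all genes fell from 495 to 218 without control replicate 1, 237 without mimic replicate 2 and 278 without mimic replicate 4. Deviations of the 5 same-numbered pairs had correlations of -0.0232 to 0.0158, within the -0.0728 to 0.0767 of other pairs. This gave no sign of pairing by replicate number. So few pairs cannot exclude it, and the labels do not say. With the number as a replicate block, 328 genes were called. The fold changes of Hivep1, Hivep2 and Hivep3 were then -0.1241, -0.1155 and -0.2252, with 2 called, Hivep2 and Hivep3. The block left 0 of the partner list called, so that Rps6ka3 was not, ended the call of Bmp7 (0.1908) and left 1 oligodendrocyte marker called.

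Calls in the short lists moved by a few genes. With 1 sample left out they ran from 0 to 1 for partners, 1 to 2 for kB-enhancer genes, 0 to 4 for BMP and Smad genes, 0 to 3 for neuronal, 0 to 1 for oligodendrocyte and for microglial and 1 to 2 for fibroblast and vascular markers. Upper-quartile scaling gave 2 kB-enhancer genes and 1 neuronal marker. Without the count filter there were 2 kB-enhancer genes, 5 BMP and Smad genes, 2 astrocyte, 2 oligodendrocyte and 1 microglial marker. A filter of 10 counts in every sample gave 1 microglial marker. DESeq2 gave 1 oligodendrocyte and 5 fibroblast and vascular markers, and 1 BMP gene was called from the normalized table with either pseudocount. Hivep3 had 3 seed matches with all annotated 3′ UTRs. With 1 control left out the level ratios were 4.922 to 4.996 (Hivep2 over Hivep1), 2.288 to 2.344 (Hivep1 over Hivep3) and 11.27 to 11.56 (Hivep2 over Hivep3), and the exact permutation test can then not pass. Uncalled genes changed sign. With 1 sample left out Jun ran from -0.0122 (control replicate 6; -0.003 without mimic replicate 1) to 0.0363, Runx2 from -0.1775 to 0.0678 (mimic replicate 3; 0.0509 and 0.0212 without control replicate 4 and mimic replicate 1), Smad5 from -0.0414 to 0.0011 (control replicate 6), Sstr2 from -0.0589 to 0.0016 and Wwp1 from -0.0014 to 0.0683 (mimic replicate 5 for both sign changes). With the block Jun was -0.0097. The causes were not tested.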

Other observations

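Seed matches to the other microRNAs of the study, which were not given to these cultures, were also counted in the HIVEP genes. Each of the 3 genes had 1 match of at least 7 letters to miR-148a-3p in its 3′ UTR, which 24.1% of 14512 genes had. The 3′ UTRs of the same transcripts held 0 matches to miR-146a-5p. The predicted targets that the study lists for miR-148a-3p include Hivep1 and Hivep3.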
